A study of Saccharomyces cerevisiae with 6 samples.

Results

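The genes described here encode 7 budding yeast enzymes that make or remove flavour-active esters or act on phenylacrylic acids: ATF1, ATF2, EEB1, EHT1, IAH1, PAD1 and FDC1. They are 7 of 5449 S. cerevisiae genes measured on the arrays, and each was found through the platform's gene annotation, by 1 probe set per gene. The group was picked from enzyme function and because ATF2 and PAD1 were strongly lower in hsc82-W296A than in WT cells, so the changes of these genes are given as a description with no p-value. The study asked what a mutant Hsp90 does to gene expression. All cells were of strain JJ816, in which both chromosomal Hsp90 genes, HSC82 and HSP82, are deleted. The WT group carried wild-type HSC82 on a plasmid, and the hsc82-W296A group carried on a plasmid a form of Hsc82 in which a tryptophan is replaced by alanine, each as the sole Hsp90 of the cell. Both groups held 3 cultures, grown overnight in YPD, a rich medium with glucose, at 30 °C and harvested in exponential growth at an optical density of 0.5, with 1 array per culture. The labels call the cultures biological replicates and name neither separate transformants nor the plasmid's promoter, so the errors below cover the spread between these cultures of 1 strain.

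Acetate esters are formed when an alcohol acetyltransferase joins acetyl-CoA to an alcohol, and Atf1 and Atf2 are yeast enzymes of this kind. They make ethyl acetate, isoamyl acetate and phenylethyl acetate, the fruity and rose-like notes of beer and wine, and Atf2 also acetylates sterols. Ethyl esters of medium-chain fatty acids are made by Eeb1 and Eht1, a paralogous pair that joins acyl-CoA to ethanol. The hydrolase Iah1 removes acetate esters, isoamyl acetate above all. Pad1 and Fdc1 act together on cinnamic, ferulic and coumaric acid: Pad1 attaches a prenyl group to a flavin, and Fdc1 uses that cofactor to decarboxylate the acid to a volatile vinyl compound, the cause of clove-like notes in some beers.

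Values are array signals on the log2 scale, so a difference of 1 is a factor of 2, and each change is hsc82-W296A minus WT with the standard error (SE) of the fit over n = 3 arrays per group. Signals of different genes are not comparable, because each comes from its own probes. Both Hsp90 genes were higher in hsc82-W296A, HSC82 by 0.26 ± 0.041 (limma adjusted p = 0.00139) and HSP82, deleted in this strain, by 0.29 ± 0.048 (limma adjusted p = 0.00179). The paralogs are near-identical and can share probe signal, so this checks neither the deletion nor the substitution. The arrays themselves differed slightly between the groups. The median over S. cerevisiae probe sets was 10.94 to 11.04 in WT and 11.07 to 11.13 in hsc82-W296A, while that over probe sets for another species, which read background, was 6.52 to 6.70 and 6.38 to 6.46. The part of these shifts in the changes below was not tested, but each change is also given after other scalings. Background was set at 8.14, and all 7 genes lay above it on every array. In RNA from whole cultures, fewer cells that transcribe a gene and less RNA of it per cell cannot be told apart.

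Of the acetyltransferases, ATF2 (YGR177C) had the larger difference. Its signal was 11.15, 11.20 and 11.35 in the WT cultures and 9.24, 9.33 and 9.31 in the hsc82-W296A cultures. Every hsc82-W296A array therefore lay far below every WT array, with 1.82 between the nearest arrays of the groups. The means were 11.23 ± 0.10 and 9.30 ± 0.048 (SD, n = 3), a change of -1.94 ± 0.063, or 3.82-fold lower. ATF1 (YOR377W) was lower too, by much less. It read 10.62, 10.59 and 10.69 in WT and 10.06, 10.05 and 9.99 in hsc82-W296A. These groups were also apart, by 0.53, and the change was -0.60 ± 0.048, or 1.52-fold lower. Pooled over both groups, ATF1 had the tightest replicates of the 7 genes, with SDs of 0.053 in WT and 0.040 in hsc82-W296A. Within hsc82-W296A alone, FDC1 was tighter, with an SD of 0.020.

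The 2 acetyltransferase genes can be set against each other within an array, which removes any shift common to the whole array. ATF2 minus ATF1 was 0.53, 0.61 and 0.65 on the WT arrays and -0.82, -0.72 and -0.68 on the hsc82-W296A arrays. The sign of this difference has no meaning of its own, since the probes differ. Its move of -1.33 between the genotypes describes unequal change within the pair. ATF2 was picked for its large fall, so nothing further is read from this move.

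The ethanol acyltransferase genes went in opposite directions. EEB1 (YPL095C) read 10.72, 10.99 and 11.10 in WT and 10.49, 10.41 and 10.32 in hsc82-W296A. It was lower on each mutant array, but WT replicate 1 was the low WT array and lay only 0.23 above the highest mutant array. The change was -0.53 ± 0.10, or 1.44-fold lower. EEB1 had the widest spread of the 7 genes when pooled over both groups, with an SD of 0.19 in WT. EHT1 (YBR177C) read 11.01, 11.17 and 11.26 in WT and 11.35, 11.52 and 11.54 in hsc82-W296A. The groups were separated by just 0.081, less than the SD of either group (0.13 and 0.11). Its change was 0.32 ± 0.084, or 1.25-fold higher, the smallest of the 7. EHT1 minus EEB1 was 0.29, 0.18 and 0.17 on the WT arrays and 0.85, 1.11 and 1.21 on the mutant arrays, a move of 0.85.

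The esterase gene IAH1 (YOR126C), whose product breaks down acetate esters, was higher in hsc82-W296A. It read 10.19, 10.22 and 10.47 in WT and 10.65, 10.78 and 10.78 in hsc82-W296A. The nearest arrays of the groups were 0.19 apart, and WT replicate 3 was the high WT array. The change was 0.44 ± 0.083, or 1.36-fold higher. Of the ester genes, then, both acetyltransferase genes were lower and the gene of the opposing hydrolase was higher, while the ethyl ester pair was split. The group was picked on this contrast and arrays do not measure esters, so nothing further is read from these directions.

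PAD1 (YDR538W), the flavin prenyltransferase, was the other gene with a large difference. It read 11.61, 11.55 and 11.73 in WT and 9.84, 9.83 and 9.90 in hsc82-W296A, with 1.64 between the nearest arrays. Means of 11.63 ± 0.093 and 9.86 ± 0.042 (SD, n = 3) gave a change of -1.77 ± 0.059, or 3.42-fold lower. FDC1 (YDR539W), the decarboxylase that needs the cofactor made by Pad1, read 10.87, 11.03 and 11.09 in WT and 10.55, 10.59 and 10.55 in hsc82-W296A. The mutant cultures were nearly alike (SD 0.020) and all below WT, by a change of -0.43 ± 0.064, or 1.35-fold lower. PAD1 minus FDC1 was 0.74, 0.51 and 0.64 on the WT arrays and -0.72, -0.76 and -0.65 on the mutant arrays, a move of -1.34. The enzymes work as a pair, and their genes are next to each other in the gene table and read in the same direction, but their signals differed by unequal amounts. PAD1 was picked for its large fall, so nothing further is read from the move of -1.34.

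**Figure D1:**
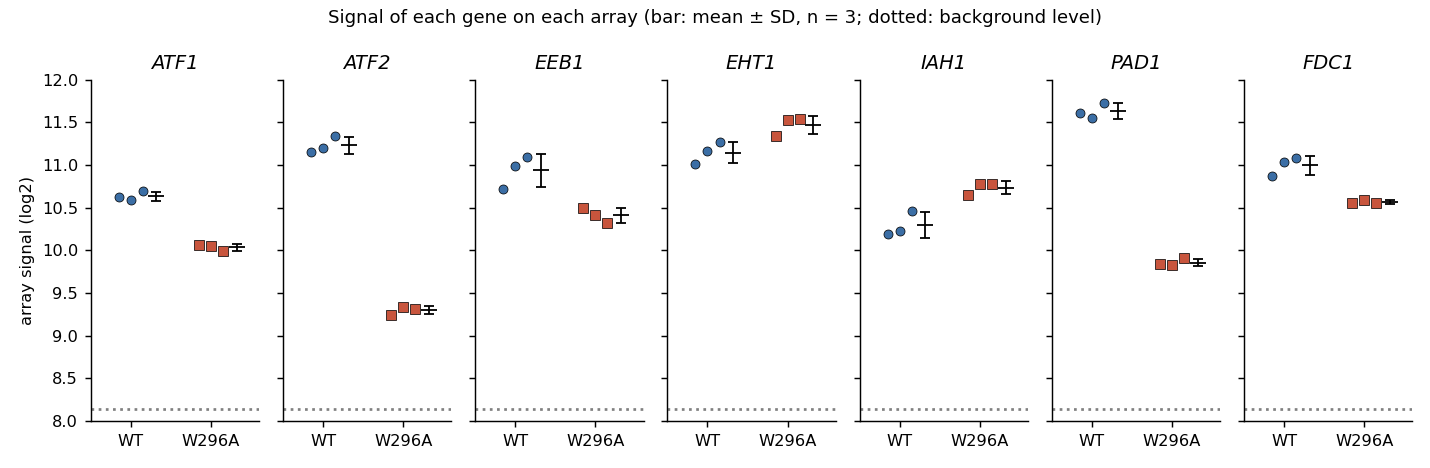
Array signal (log2, vertical axis) of each of the 7 genes in the 3 WT cultures (circles) and the 3 hsc82-W296A cultures (squares), in replicate order from left to right, with the mean ± SD beside them and the background level of 8.14 as a dotted line. ATF2 and PAD1 lie 1.82 and 1.64 apart between the nearest arrays of the groups, while the EHT1 groups are 0.081 apart.

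As a group, 5 of the 7 genes were lower and 2 higher in hsc82-W296A, and the groups did not overlap for any of the 7. Non-overlap was common on these arrays, at 73.6% of all 5449 genes. All 7 passed an adjusted p of 0.05 in the limma fit, as did 67.3% of all genes; 37.1% of all genes were called higher and 30.3% lower. Since this contrast chose the group, nothing is read from these counts. The median change of the 7 was -0.53, against 0.04 over all genes. ATF2 and PAD1 were the 2 that were at least 2-fold lower. Of all genes, 0.863% were both past the threshold and at least 2-fold lower. In the order of all changes from the lowest, ATF2 ranked 6, PAD1 9, ATF1 333, EEB1 433 and FDC1 637 of 5449. Counted from the highest, IAH1 ranked 1293 and EHT1 1628. Changes larger in size, in either direction, were found in 2.55% of genes for ATF2 and 3.14% for PAD1. For the others this share was 24.0% for ATF1, 28.3% for EEB1, 34.8% for IAH1, 35.9% for FDC1 and 47.5% for EHT1.

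**Figure D2:**
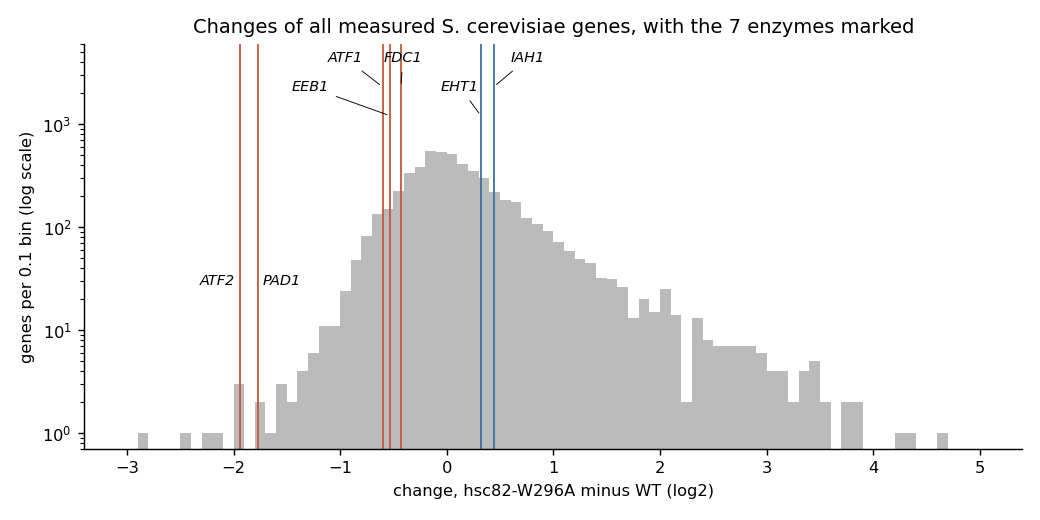
Number of genes (log scale) by change between hsc82-W296A and WT (log2, bins of 0.1) for all 5449 genes in grey, with a line at each of the 7 enzyme genes, red where lower and blue where higher. ATF2 and PAD1 stand in the thin lower tail, at -1.94 and -1.77, and the other 5 within the bulk, between -0.60 and 0.44.

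The spread between replicate cultures is separate from the difference that chose these genes. Pooled over both groups, the SD of the 7 genes ran from 0.047 for ATF1 to 0.15 for EEB1, where the median gene had 0.080. EEB1, EHT1 and IAH1 were well above that median, FDC1 and ATF2 were close to it, and PAD1 and ATF1 were below it. WT replicate 3 gave the highest WT signal for 7 of the 7 genes. It also had the highest S. cerevisiae median among the WT arrays and the highest WT signal in 65.3% of all genes. In hsc82-W296A the genes had no such shared order: ATF1 and EEB1 were lowest in replicate 3, while EHT1 and IAH1 were lowest in replicate 1.

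The profiles most like ATF2 and PAD1 were taken as those with the smallest Euclidean distance over the 6 arrays, after each probe set's own mean was subtracted. With 2 groups of 3 this mostly ranks genes by the size of the same difference, so the likeness is a description. For ATF2 the 5 nearest were YMR230W-A at a distance of 0.21, YOL014W at 0.22, PAD1 at 0.23, PHO11 at 0.28 and YDR222W at 0.36. For PAD1 they were YOL014W at 0.17, ATF2 at 0.23, YHR214C-E at 0.30, PHO11 at 0.32 and YMR230W-A at 0.34. ATF2 and PAD1 are thus among each other's nearest profiles, though their own changes chose them. PHO11, an acid phosphatase, is read by a probe set that its ID marks as shared with other sequences, and the mutant mean of YHR214C-E, 6.78, was under the background level.

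The genes beside each enzyme gene were read next, 2 on each side in the order of the gene table. Of 23 such neighbours with a probe set, 9 rose, 6 fell and 8 did not pass an adjusted p of 0.05 in the limma fit, near the 67.3% called over all genes, so the count is no result about the neighbours. Around ATF2 the nearest genes on either side did not share its large difference. ERG1, squalene epoxidase of sterol synthesis, changed by -0.05 ± 0.043 (limma adjusted p = 0.334), or by -0.35 with background and middle matched, where it passed. PBP1 differed by 0.23 ± 0.13 (limma adjusted p = 0.147, or 0.00792 with the replicate number as a block; it also passed with array weights and without hsc82-W296A replicate 1), and OKP1, a kinetochore gene, by -0.09 ± 0.082 (limma adjusted p = 0.375). The short reading frame YGR174W-A rose by 2.83 ± 0.10 (limma adjusted p = 3.27e-06), from 5.95 in WT, far below background, to 8.78.

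Around PAD1 and FDC1 the neighbours moved both ways. STL1, a glycerol transporter gene read on the same strand before PAD1, rose by 1.46 ± 0.15 (limma adjusted p = 0.000192), with WT signals of 7.71, 7.15 and 7.39 under background and mutant signals of 8.78, 9.07 and 8.77. FIT1, a cell wall mannoprotein of iron uptake, rose by 0.59 ± 0.087 (limma adjusted p = 0.00101) but stayed below background in each culture. On the far side of FDC1, IRC4 fell by 0.55 ± 0.14 (limma adjusted p = 0.0107), and the next gene, YDR541C, differed by 0.09 ± 0.060 (limma adjusted p = 0.206). FDC1 and IRC4, the genes that follow PAD1, were thus both lower, by less than PAD1, and STL1 before it was higher.

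Beside EEB1, SEC62 of the protein translocation machinery fell by 0.39 ± 0.040 (limma adjusted p = 0.000179) and NOG1, a GTPase of ribosome assembly, by 0.51 ± 0.059 (limma adjusted p = 0.000314), close in size to EEB1 itself. PNG1, on the other side, rose by 0.17 ± 0.050 (limma adjusted p = 0.0216), but stood between 0.05 and 0.06 under the 3 other scalings and no longer passed, nor did it without WT replicate 1 or 2 or without hsc82-W296A replicate 2. Beside EHT1, SWD3 and ECM31 fell by 0.47 and 0.33 and FZO1, a mitofusin, rose by 0.29. Beside IAH1, UBP2, CAT5 and ADE2 rose by 0.34, 0.23 and 0.33. FZO1, UBP2, CAT5 and ADE2 each lost the call in at least 1 of the other scalings or with the coding length trend removed, ADE2 also without WT replicate 1 or 2 or without hsc82-W296A replicate 2 or 3. Beside ATF1, AMF1 fell by 0.56, to below background on 2 of the 3 mutant arrays, and RDR1 rose by 0.69, or 0.37 after quantile normalization.

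Genes that supply substrates to these enzymes were read as lists. In the Ehrlich pathway, amino acids are transaminated, decarboxylated and reduced to higher alcohols such as isoamyl alcohol and phenylethanol. Of its 19 measured genes 8 rose, 2 fell and 9 did not pass, with a median change of 0.18 against 0.04 over all genes, of which 37.1% were called higher and 30.3% lower. The median was 0.11 under quantile normalization and 0.07 under median centring, and with the replicate block 12 genes rose. ARO9, an aromatic aminotransferase, read 10.60, 10.82 and 10.77 in WT and 11.67, 11.72 and 11.67 in hsc82-W296A, and rose by 0.96 ± 0.064 (limma adjusted p = 3.10e-05). ARO10, the decarboxylase of the following step, read 10.96, 11.05 and 11.12 in WT and 12.38, 12.16 and 12.19 in hsc82-W296A, and rose by 1.20 ± 0.075 (limma adjusted p = 2.44e-05). For both genes the groups were far apart against their spread. PDC1, the main pyruvate decarboxylase, rose by 0.55 ± 0.061 (limma adjusted p = 0.000274), or 0.23 with background and middle matched. ADH2, an alcohol dehydrogenase whose close paralog ADH1 could share its probes, read 9.28, 9.18 and 9.70 in WT and 12.62, 12.83 and 12.81 in hsc82-W296A, and rose by 3.37 ± 0.14 (limma adjusted p = 5.08e-06). ADH1, named after its value was seen, changed by 0.04 ± 0.040 (limma adjusted p = 0.423), from a WT mean of 14.49 to 14.53. With background and middle matched ADH1 was at -0.32 and passed. The share of ADH1 in the ADH2 signal was not tested. ADH6, an aldehyde reductase, fell by 0.59 ± 0.058 (limma adjusted p = 0.000150). The list's other fall, that of ADH4, was larger, at -0.72 ± 0.086 (limma adjusted p = 0.000374). Of the other transaminase genes, BAT1 rose by 0.40 ± 0.059 (limma adjusted p = 0.000958), and BAT2 and ARO8 did not pass as deposited. These 4 genes were named after their values were seen.

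The acyl-CoA that Atf1, Atf2, Eeb1 and Eht1 use comes from acetyl-CoA synthetases, fatty acid synthesis and acyl-CoA synthetases. In this list, which also holds regulators of ATF1, 8 of 15 genes rose, 3 fell and 4 did not pass. Across all genes, 37.1% were called higher and 30.3% lower, with a median of 0.04. The list's median was 0.26, but 0.14 after median centring and with the coding length trend removed, and -0.03 with background and middle matched. ACS1, an acetyl-CoA synthetase, read 11.05, 11.02 and 11.10 in WT and 11.83, 11.92 and 11.92 in hsc82-W296A, and rose by 0.83 ± 0.049 (limma adjusted p = 1.86e-05). ACS2, the list's other acetyl-CoA synthetase gene, was named after its value was seen. ACS2 did not share this rise, at -0.02 ± 0.047 (limma adjusted p = 0.772). It passed as lower under 3 of 16 alternatives, at -0.30 with matched background and middle, -0.19 without the length trend and -0.13 after median centring. ACC1, acetyl-CoA carboxylase, rose by 0.79 ± 0.062, FAA1, an acyl-CoA synthetase, by 0.91 ± 0.079 and FAS2, a fatty acid synthase subunit, by 0.79 ± 0.085, each with groups that did not overlap. FAS1, the other subunit, rose by 0.40 ± 0.045, but by 0.08 with background and middle matched, where it did not pass (limma adjusted p = 0.341), and by 0.14 with the coding length trend removed. ACC1 was at 0.52 with background and middle matched. The list's other FAA genes, named after their values were seen, did not share the rise of FAA1. FAA2 fell by 0.44 ± 0.086 (limma adjusted p = 0.00372) and FAA3 by 0.55 ± 0.086 (limma adjusted p = 0.00128). FAA4, at 0.18 ± 0.086, did not pass as deposited (limma adjusted p = 0.102). The list's 4 regulators, named after their values were seen, went in different directions. HAP1, a heme-dependent activator, rose by 0.92 ± 0.14 (limma adjusted p = 0.000954), and ROX1, a repressor of hypoxic genes, was at 0.02 ± 0.044 (limma adjusted p = 0.730), or -0.20 and past the threshold after quantile normalization. SPT23 and MGA2 encode related activators of OLE1. SPT23 rose by 0.41 ± 0.11 (limma adjusted p = 0.0151), or 0.25 after quantile normalization, and did not pass with the coding length trend removed (0.20). MGA2 fell by 0.24 ± 0.086 (limma adjusted p = 0.0433). The MGA2 call was lost with array weights, with all probe sets fitted, and when any single array except hsc82-W296A replicate 2 was left out; its change was -0.15 without hsc82-W296A replicate 1 and -0.43 after quantile normalization.

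Atf2 takes part in a cycle in which it acetylates sterols, Say1 deacetylates them and Pry proteins bind the acetylated forms outside the cell. All 3 PRY genes rose. PRY1 read 8.32, 8.41 and 8.72 in WT, close above background, and 11.55, 11.89 and 11.71 in hsc82-W296A, and rose by 3.24 ± 0.13 (limma adjusted p = 4.29e-06). PRY2 rose by 0.44 ± 0.11 (limma adjusted p = 0.00946), or 0.25 with background and middle matched, and PRY3 by 0.36 ± 0.077 (limma adjusted p = 0.00542). The PRY3 call was lost after quantile normalization (0.12) and with the coding length trend removed (0.17). SAY1, named after its value was seen, stood at 0.02 ± 0.072 (limma adjusted p = 0.796), with WT signals of 10.24, 10.35 and 10.40 that overlapped the mutant signals of 10.40, 10.22 and 10.43. In the whole list of 14 measured genes of sterol acetylation and other acyl ester metabolism, 5 rose, 0 fell and 9 did not pass, with a median of 0.03. Over all genes, 37.1% were called higher and 30.3% lower, with a median of 0.04. The count of 0 depended on the processing. With the replicate block ARE2 and YEH2 fell, by 0.28 and 0.21 (limma adjusted p = 0.0024 and 0.0168), and 2 genes fell with array weights, without WT replicate 1 or without hsc82-W296A replicate 3, and 1 with the intensity trend. The decreases numbered 5 under quantile normalization, 5 under median centring, 4 without the coding length trend and 3 once background and middle were matched, and the median was then between -0.12 and -0.03. The triacylglycerol lipase genes TGL4 and TGL5 rose by 0.73 ± 0.13 and 0.51 ± 0.056, or 0.43 and 0.33 after quantile normalization, and TGL5 by 0.33 with the coding length trend removed. No probe set was assigned to EAT1 or MGL2, which encode related enzymes.

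The cofactor that Pad1 makes is built on FMN, so the riboflavin pathway was read as a list of 8 genes. Of these 4 fell, 1 rose and 3 did not pass, where 30.3% of all genes were called lower and 37.1% higher. FMN1, the riboflavin kinase that makes FMN, read 11.48, 11.48 and 11.49 in WT and 11.20, 11.19 and 11.21 in hsc82-W296A, and fell by 0.28 ± 0.038 (limma adjusted p = 0.000632). RIB2 fell by 0.53 ± 0.039 (limma adjusted p = 4.40e-05) and RIB7 by 0.31 ± 0.047, and these were at -0.82 and -0.53 after quantile normalization. RIB1 fell by 0.18 ± 0.053 (limma adjusted p = 0.0206) and RIB5, the riboflavin synthase, rose by 0.40 ± 0.068 (limma adjusted p = 0.00202). The RIB1 call was lost with the coding length trend removed and when WT replicate 2 or 3 or hsc82-W296A replicate 1 was left out, and with background and middle matched RIB1 was at -0.29 and RIB5 at 0.17. RIB3, RIB4 and FAD1, at -0.04, 0.06 and 0.0061, did not pass. RIB3 passed as lower with quantile normalization (-0.13), median centring (-0.15) and background and middle matched (-0.33). Its sign flipped only with the coding length trend removed (0.04). The signs of RIB4 and FAD1 flipped under 3 and 5 of 16 alternatives. The list's median was -0.11, against 0.04 over all genes, and lay between -0.31 and -0.22 under the 3 other scalings and at -0.05 with the coding length trend removed.

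Aryl alcohol dehydrogenases are named for their likeness to fungal enzymes that reduce aromatic aldehydes. Of the 5 measured, 4 rose, 0 fell and 1 did not pass, while no probe set was assigned to AAD15 or AAD16. Among all genes, 37.1% were called higher and 30.3% lower. AAD10 read 9.04, 8.92 and 9.14 in WT and 10.81, 11.10 and 11.33 in hsc82-W296A, and rose by 2.05 ± 0.13 (limma adjusted p = 2.57e-05). AAD4, AAD6 and AAD3 rose by 0.50 ± 0.17, 0.65 ± 0.21 and 0.44 ± 0.095. For AAD4 and AAD6, hsc82-W296A replicate 1 was the high array, at 12.24 against 11.59 and 11.77, and at 10.29 against 9.44 and 9.70; without it the changes were 0.31 and 0.41 and still passed. The AAD4 call was lost without WT replicate 1 or 2 or hsc82-W296A replicate 3, and the AAD6 call without WT replicate 1 or 3 or hsc82-W296A replicate 3. The calls of AAD4, AAD6 and AAD3 were lost after quantile normalization, and that of AAD4 under the other scalings too. Quantile normalization left AAD14, at 0.07 as deposited, at -0.27 and past the threshold. These genes are close paralogs, AAD3 and AAD4 have several probe sets each, and the ones used are marked as shared, so single members are uncertain.

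Phenylacrylic acids are weak acids, and a list of genes for tolerance of weak acids and for drug export was read last. Of 14 genes 8 rose, 1 fell and 5 did not pass, with a median of 0.38. The shares over all genes were 37.1% called higher and 30.3% lower, with a median of 0.04. With the coding length trend removed 6 rose and 4 fell, with a median of 0.15, and the median was 0.25 with background and middle matched. Without WT replicate 1, and under quantile normalization or median centring, 3 fell, and 2 fell with the replicate block. SPI1, a cell wall protein, rose by 2.49 ± 0.042, YRO2 by 1.57 ± 0.073 and YGP1, a secreted glycoprotein, by 1.37 ± 0.070, with limma adjusted p-values of 4.60e-07, 7.96e-06 and 1.09e-05. The polyamine exporter gene TPO2, whose probe set is marked as shared, rose by 0.92 ± 0.086 and YOR1, an ABC transporter gene, by 1.04 ± 0.13, and groups were apart for each of these 5 genes.

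**Figure D3:**
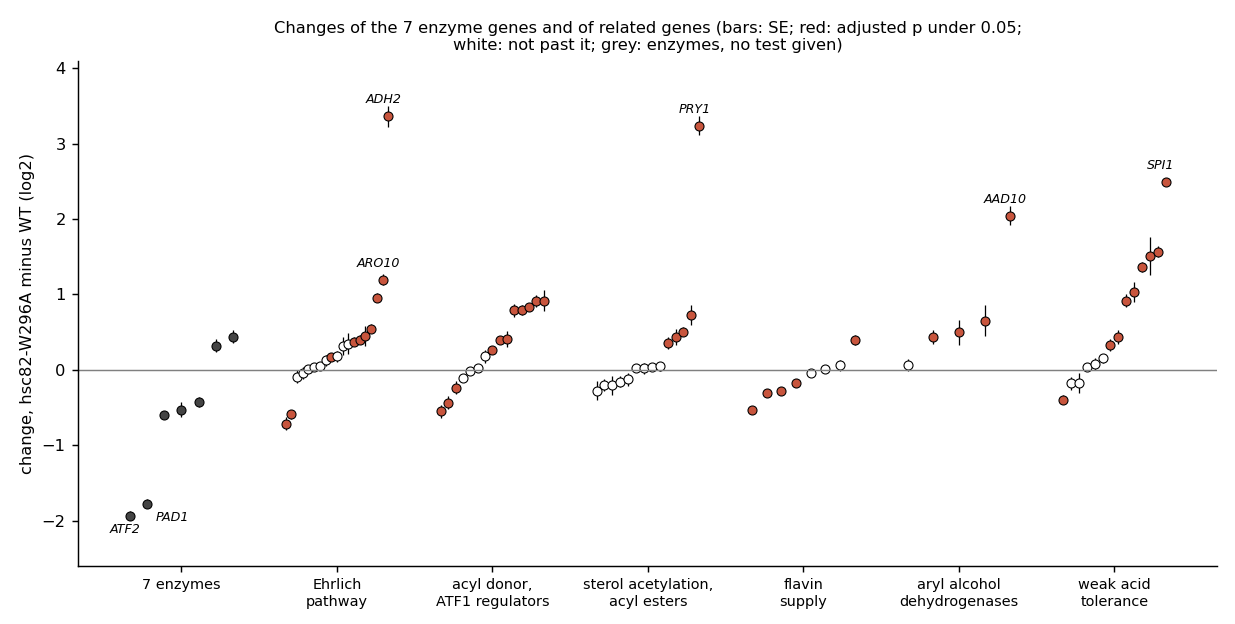
Change between hsc82-W296A and WT (log2, with SE bars) of the 7 enzyme genes in grey and of the measured genes in the 6 related lists, red where past an adjusted p of 0.05 and white where not, sorted by value within each list. No gene of the 6 lists is as low as PAD1 or ATF2, but their large falls chose the enzyme group, so nothing is read from this. In the lists ADH2, PRY1, SPI1 and AAD10 are the highest, at 3.37, 3.24, 2.49 and 2.05.

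Of 17 alternatives in the processing, 6 alter only the errors or the choice of probe sets and leave the changes of the 7 enzyme genes as they are. Under the 11 that can move them, leaving out single arrays included, the direction of all 7 was the same. ATF2 ranged from -2.15 to -1.88 and PAD1 from -1.98 to -1.69. ATF1 ranged from -0.82 to -0.57, EEB1 from -0.70 to -0.45 and FDC1 from -0.58 to -0.38. Relative to their size, the changes of the higher genes moved most. EHT1 was at 0.19 with background and middle matched, and IAH1 at 0.27 after quantile normalization, both moves of over 1.5 times. The 3 other scalings lowered the median change of all probe sets from 0.04 to between -0.07 and -0.06, and the values of all 7 genes moved downward under each of them.

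**Figure D4:**
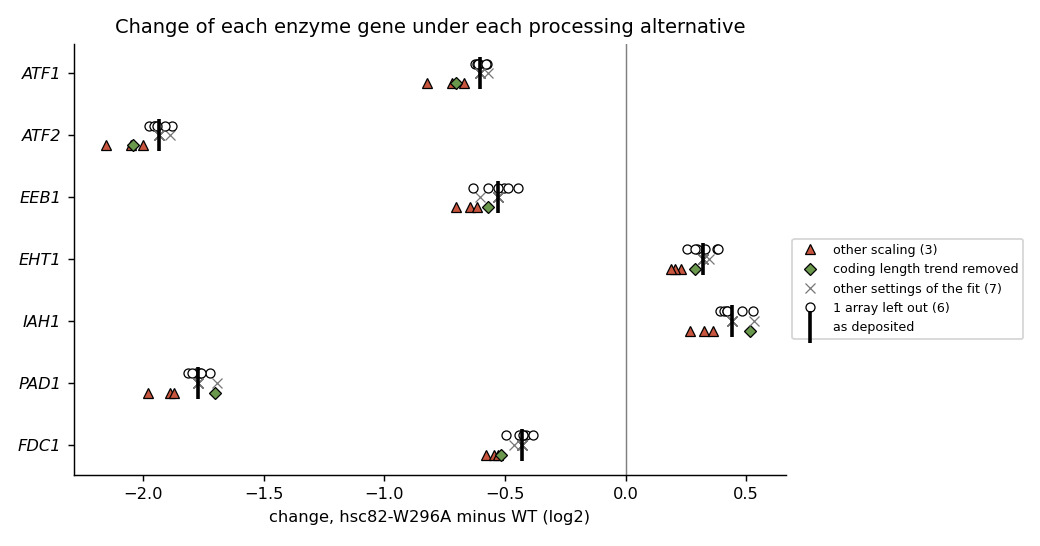
Change between hsc82-W296A and WT (log2, horizontal axis) of each enzyme gene as deposited (black bar), under 3 other scalings (triangles), with the coding length trend removed (diamonds), with single arrays left out (circles) and under 7 other settings (crosses). No point crosses 0, and the triangles lie to the left of the black bar for each gene.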

How the data were processed

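Total RNA of 6 yeast cultures was labelled as biotinylated cRNA, from 5 µg each, for Affymetrix arrays, per the labels' protocols. The authors deposited 1 value per probe set and array, on the log2 scale as judged from the range of 4.53 to 14.9. Limma is listed in the submitters' processing notes without a step. How background, normalization and probe summary were handled is not given in the sources.

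Of 10928 probe sets, 5498 were assigned to 5449 S. cerevisiae genes by gene ID in the platform annotation, with names from a gene table of assembly R64, and 1746 to another species. For 47 genes with more than 1 probe set, the brightest on average was used. The table served for names, lengths and gene order, and no coordinates are given, since the arrays' build is not named. Background, 8.14, was the level that 95% of other-species probe sets stayed under on average.

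All 5498 probe sets were fitted together in limma 3.58.1 (lmFit, eBayes; R 4.3.3), without a block, with Benjamini-Hochberg adjustment and a threshold of 0.05. The number of arrays limits the precision. No set test was run. Same-numbered WT and hsc82-W296A arrays deviated together from their group means (correlations of 0.405, 0.148 and 0.364), a pairing that comes from the data with no label for it. The pairing is unclear for replicate 2. WT replicate 2 with hsc82-W296A replicate 3 gave 0.1385, and WT replicate 3 with hsc82-W296A replicate 2 gave 0.107. The remaining differently numbered pairs were negative. The reported errors and p-values come from the unpaired fit, and pairs enter only as the replicate block alternative. The scripts were tested on simulated data. Tables used Python 3.11.15 and pandas 2.3.3.

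The members and the 6 related lists were chosen with earlier results of these data known. Named were the 7 enzyme genes, both Hsp90 genes, all members of lists of at most 8 genes and otherwise the 5 with the smallest adjusted p past the threshold, 2 neighbours on each side, and the 5 nearest profiles of ATF2 and PAD1. Alternatives were quantile normalization over all probe sets, median centring, a linear match of each array's other-species and S. cerevisiae medians ("background and middle matched"), removal of a lowess trend on coding length, leaving out dim probe sets or single arrays, array weights, a replicate block, a robust or intensity-dependent prior, use of all probe sets and the lowest-mean probe set.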

Additional observations from a re-analysis of the deposited data

How the results depend on the processing

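All 7 enzyme genes stayed past the threshold under each of 17 alternatives, of which 11 can move their changes, and kept their direction under those 11. This does not test them, as this contrast chose them. Over all probe sets 3688 passed as deposited, 4007 with the replicate block and 3189 to 3713 with single arrays left out. With the block, 3 neighbours (PBP1, RGA1 and ERI1) and 8 list genes that had not passed did so, and no list count moved by more than 1.5 times. The share of calls that were higher was 55.0% in the deposited values, but 42.8% under quantile normalization, 42.3% under median centring and 44.1% once background and middle were matched. The acyl ester list had 5 calls as deposited, 9 under quantile normalization, 10 under median centring, 8 once background and middle were matched, and 8 without the coding length trend. The aryl alcohol dehydrogenase list had 4 calls, 2 after quantile normalization, and 2 to 4 with single arrays left out, the 2 without WT replicate 1 or hsc82-W296A replicate 3. The total calls of the other 4 lists stayed within 1.5 times under the alternatives run. The cause of these moves was not tested. The fit of array weights stopped before full convergence. Low signals near background, as for PRY1 and STL1 in WT, limit how well the size of a rise can be read.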
